A study of Mus musculus with 24 samples.

Results

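Oxidative phosphorylation genes of CD4 T cells were followed over 24 arrays in 6 groups of 4. The genes were those whose name on the array starts with Nduf, Uqcr or Atp5, or with Cox4 to Cox8, or is Sdha, Sdhb, Sdhc or Sdhd. This rule took 82 of the 27962 genes named on the array, read by 113 of 41174 probes. The chosen genes were 35 of complex I, 4 of complex II, 7 of complex III, 18 of complex IV and 16 of complex V. Ndufa4 was counted with complex IV, with which its protein is now known to associate. The other two names were Ndufaf1, an assembly factor of complex I, and Cox4nb, which RefSeq calls Emc8 and which is no subunit of a respiratory complex. After a filter on dim probes 79 of the 82 genes were tested among 16643 in all. Cox4i2, Cox8b and Cox8c, isoforms known from other tissues, were not well above background on enough arrays to pass. Of the 79 genes, 78 were well above background on all 24 arrays, so the filter did not select them by group, and Cox6a2 was so on 21.

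The cells came from female C57BL/6 mice of 6 or 7 weeks, either wild type (WT) or carrying a T cell-specific conditional knockout of Trim28 (CKO). Trim28 encodes a corepressor that zinc finger proteins recruit to chromatin, and the Cre line is not given in the labels. Naive CD4 T cells (CD4+CD62+CD25-) and regulatory T cells (Treg, CD4+CD62+CD25+) were sorted. The groups were WT and CKO naive unstimulated cells, WT and CKO naive cells stimulated for 13 h with plate-coated anti-CD3 and anti-CD28, and WT and CKO Treg. Each group held mice of both ages. The labels of the CKO Treg samples name T cell receptor stimulation and those of the WT Treg samples name none, while the design text speaks of stimulating naive cells only. A difference in treatment between the Treg groups therefore cannot be told apart from genotype. The labels do not say whether the 4 arrays of a group came from separate mice, and a p-value therefore reflects only how far these samples scatter, and the number of arrays limits the precision.

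The respiratory chain passes electrons from NADH (complex I) and succinate (complex II) through ubiquinone, complex III and cytochrome c to complex IV, which reduces oxygen. Complexes I, III and IV pump protons out of the mitochondrial matrix, and complex V, the ATP synthase, makes ATP as protons flow back. Most subunits are encoded in the nucleus and joined to a small set made from mitochondrial DNA, so nuclear transcripts give only one side of the balance. Resting naive T cells rely largely on oxidative metabolism, and activated T cells enlarge their mitochondria while also increasing glycolysis.

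Trim28 itself was lower in CKO by 1.51 (log2, SE 0.17) in unstimulated cells, 2.68 in stimulated cells and 1.56 in Treg, with limma adjusted p-values of 4.91e-06, 1.11e-09 and 2.42e-06. Whether its probe lies in the deleted part is not known. Of the 7 listed activated T cell genes, 5 rose on stimulation in both genotypes (Il2ra, Il2, Egr2, Tfrc and Myc) and 2 fell (Cd69 and Nr4a1). Il2ra, the IL-2 receptor alpha chain, changed by 7.72 (SE 0.16) in WT and 6.63 in CKO (limma adjusted p = 1.83e-18 and 2.52e-17), and Cd69, an activation antigen, by -0.76 (SE 0.15) and -0.62 (adjusted p = 1.72e-04 and 0.00134). The summed level of the list was 187 to 371 before and 137 to 167 after stimulation in WT, and in CKO 176 to 251 and 173 to 246. All 7 listed CD4 T cell markers were well above background in every group. The 5 Treg markers that the array gives under their listed names had a summed level of 78.6 to 112 in WT Treg. It was 47.5 to 60.8 in CKO Treg, with no overlap, and 2.71 to 20.5 in naive cells. Summed levels are in units of each array's 75th percentile. The Treg sum leaves out Ikzf2, which the array names Zfpn1a2. Treg arrays were dimmer than naive ones: their 75th percentile signal ranged from 55.6 to 208 in WT and from 32.5 to 119 in CKO, and for naive cells from 160 to 382. Levels below are log2 values relative to that percentile, a gene is read through its brightest probe, and changes are differences between group means with their SE. A gene was called when the Benjamini-Hochberg adjusted p of limma over all 16643 genes was under 0.05. In bulk RNA a smaller share of one kind of cell and less RNA per cell cannot be told apart.

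As examples, the 250 bases before the RefSeq start of 4 genes are printed 5′ to 3′ along the gene (GRCm38.p6). Ndufb6, Uqcr (RefSeq Uqcr11) and Ndufs6 rose on stimulation in both genotypes, and Cox7a2l fell. The first 3 were the risers with the largest mean change whose upstream bases held letters of the NRF1, YY1 or ETS motifs, a choice made after values and motifs were seen. Capitals mark those letters on either strand, which are an ETS core starting 232 bases before the start in Ndufb6, an ETS core at 66 bases in Uqcr and an NRF1 core at 15 bases in Ndufs6. The Cox7a2l bases hold none of them, but Cox7a2l was added without that rule. The risers Ndufa12, Atp5g1, Ndufab1 and Ndufc2 hold none in their 250 upstream bases either. The printed bases therefore cannot show whether these letters go with the direction of the response.
Ndufb6 (chr4:40279422-40279671, minus strand): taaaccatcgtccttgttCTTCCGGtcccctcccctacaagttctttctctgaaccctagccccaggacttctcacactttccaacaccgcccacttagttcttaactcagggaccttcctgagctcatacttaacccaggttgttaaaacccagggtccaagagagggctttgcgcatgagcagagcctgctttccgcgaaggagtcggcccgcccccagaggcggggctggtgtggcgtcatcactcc
Uqcr (chr10:80406822-80407071, minus strand): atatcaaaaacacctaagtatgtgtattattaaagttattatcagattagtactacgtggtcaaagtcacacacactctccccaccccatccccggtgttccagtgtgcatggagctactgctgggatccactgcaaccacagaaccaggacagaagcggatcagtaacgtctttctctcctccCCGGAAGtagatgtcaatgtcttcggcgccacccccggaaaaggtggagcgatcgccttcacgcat
Ndufs6 (chr13:73328483-73328732, minus strand): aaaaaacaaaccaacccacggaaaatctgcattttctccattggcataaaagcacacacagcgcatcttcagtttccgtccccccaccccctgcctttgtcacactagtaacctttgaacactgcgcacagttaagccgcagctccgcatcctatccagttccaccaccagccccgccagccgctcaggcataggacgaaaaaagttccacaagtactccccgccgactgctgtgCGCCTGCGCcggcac
Cox7a2l (chr17:83514334-83514583, minus strand): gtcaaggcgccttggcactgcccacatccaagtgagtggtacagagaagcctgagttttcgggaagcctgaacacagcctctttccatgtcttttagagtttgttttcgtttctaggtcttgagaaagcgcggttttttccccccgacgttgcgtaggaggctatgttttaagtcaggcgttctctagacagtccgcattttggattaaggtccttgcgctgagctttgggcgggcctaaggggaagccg
Windows of 250 bases before and 50 after the start were given for 67 of the 82 genes. The NRF1 core GCGCANGCG stood on either strand in 20 of them (29.9%), against 7.03% of 27025 windows of all genes. The YY1 core AAGATGGCG stood in 7 (10.4%, against 1.64%) and the ETS core CCGGAAG in 17 (25.4%, against 9.93%). The MYC E box CACGTG was found in 6 (8.96%, against 8.09%) and the SP1 box GGGCGG in 28 (41.8%, against 38.2%). At least 1 of the NRF1, YY1 and ETS motifs stood in 36. A match is a run of letters and no measured site, and motifs may overlap in a window.

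Stimulation raised most oxidative phosphorylation genes, in all 5 complexes and in both genotypes. In WT naive cells 64 of 79 rose and 2 fell, against 31.7% of all genes that rose and 30.2% that fell, and the median change was 0.98 against -0.03 over all genes. In CKO cells 64 rose and 3 fell, against 29.9% and 30.3% of all genes, with a median of 0.91 against -0.08. The responses of WT and CKO share no arrays. Of the risers 63 were shared, which was 98.4% of each list, while over all genes the shared risers were 83.2% of the WT and 88.1% of the CKO list. Within the 2 slides that held both states the median was 1.12 and 1.10 in WT and 0.74 and 0.70 in CKO. Of the 55 called genes named for WT, 48 were called under all 10 other settings and all 8 fits without 1 replicate, and of 57 in CKO 41 were.

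**Figure D1:**
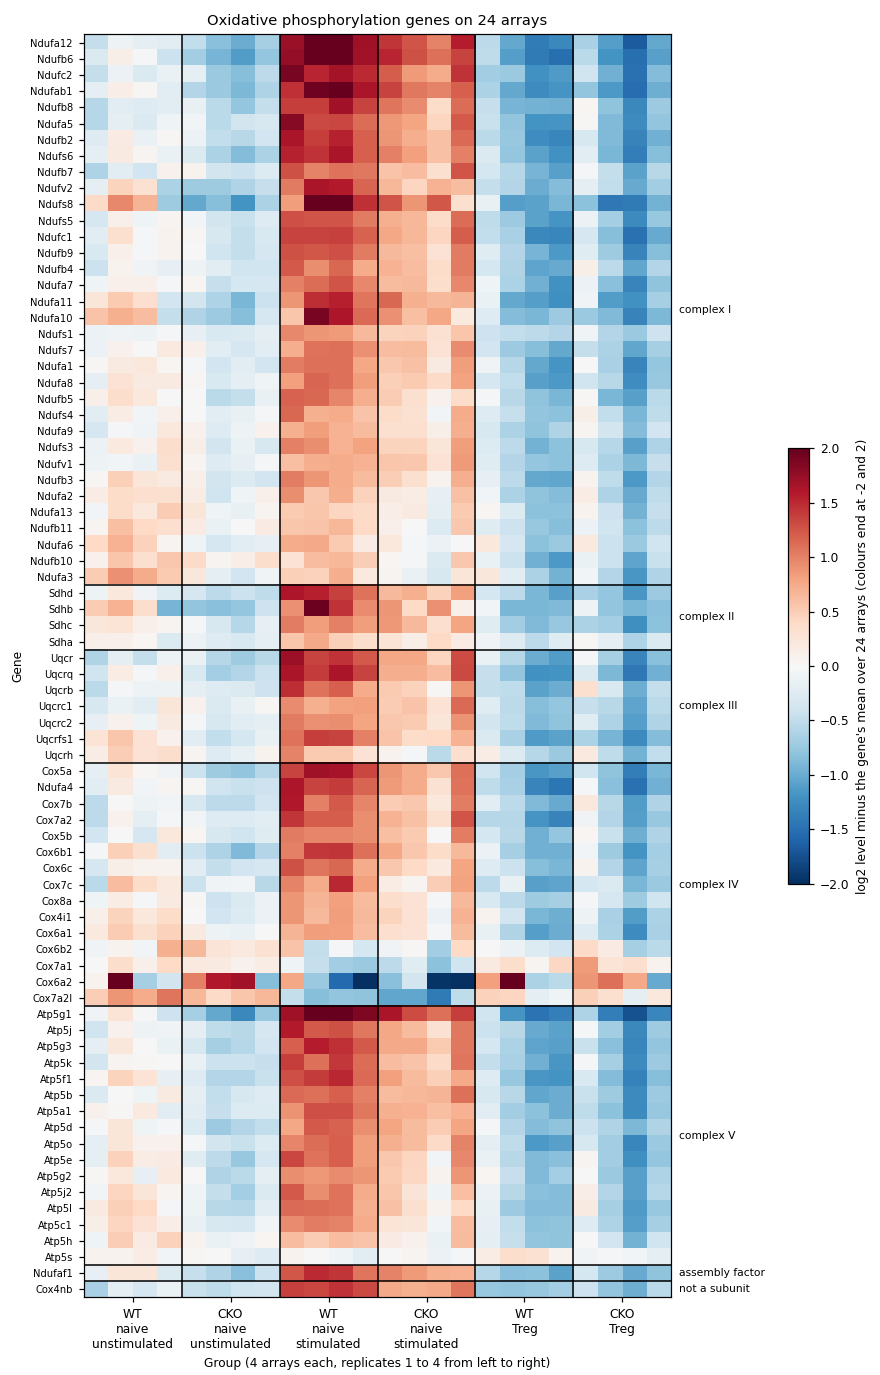
Level of 78 of the 79 genes (rows, by complex) on each of the 24 arrays (columns, by group), as log2 level minus the gene's mean over all arrays, with colours ending at -2 and 2. The stimulated columns are the high ones for most genes, and Cox7a2l stands out as low there.

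In complex I 29 of 35 genes rose in WT and 28 in CKO. Ndufa12, an accessory subunit of the matrix arm, stood at 4.69, 5.07, 4.96 and 4.93 on the unstimulated WT arrays and at 6.89, 7.15, 7.16 and 6.86 on the stimulated ones. The CKO arrays gave 4.67, 4.32, 4.18 and 4.49 before and 6.59, 6.42, 6.15 and 6.73 after stimulation. All stimulated arrays lay above all unstimulated ones, and the change was 2.10 (SE 0.20, limma adjusted p = 1.01e-08) in WT and 2.05 (adjusted p = 1.96e-08) in CKO. Ndufb6, an accessory subunit of the membrane arm whose upstream bases are printed above, rose by 2.09 (SE 0.21) and 2.19, and Ndufc2 by 1.90 and 1.64. Ndufab1, the mitochondrial acyl carrier protein that also serves in complex I, rose by 1.83 (SE 0.17) and 1.86. Of the Ndufs and Ndufv genes, Ndufs1 rose by 0.92 and 0.68 and Ndufs3 by 0.73 and 0.67. Ndufs7 rose by 0.92 and 0.79 and Ndufv1 by 0.68 and 0.65. Ndufv2 rose by 1.37 and 1.22, and Ndufs8 by 1.30 (SE 0.33) and 1.85. Ndufs6 rose by 1.47 and 1.46. The assembly factor Ndufaf1 rose by 1.30 and 1.40, and Cox4nb by 1.70 and 1.25.

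All 4 genes of complex II, the succinate dehydrogenase shared with the citric acid cycle, rose in both genotypes. Sdhd, a membrane anchor, stood at 3.63, 3.94, 3.66 and 3.45 on unstimulated and at 5.35, 5.28, 5.11 and 4.82 on stimulated WT arrays. It changed by 1.47 (SE 0.16, limma adjusted p = 8.21e-08) in WT and 1.11 (adjusted p = 4.67e-06) in CKO. Sdhb, the iron-sulfur subunit, rose by 1.16 and 1.27, Sdhc, the other anchor, by 0.76 and 0.92 and Sdha, the flavoprotein, by 0.55 and 0.46. In complex III 6 of 7 genes rose in both genotypes. Uqcr stood at 4.85, 5.26, 4.98 and 5.35 before and at 7.16, 6.80, 6.90 and 6.67 after stimulation in WT, a change of 1.77 (SE 0.25, limma adjusted p = 2.25e-06), and it changed by 1.31 in CKO. The core proteins Uqcrc1 and Uqcrc2 rose by 0.93 and 0.91 in WT and by 0.71 and 0.74 in CKO, and the Rieske iron-sulfur protein Uqcrfs1 by 0.91 and 0.81. The hinge protein gene Uqcrh did not pass the test, at 0.26 (limma adjusted p = 0.339) and 0.03 (adjusted p = 0.923).

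Complex IV was the most mixed by counts. In WT 9 of 15 tested genes rose and 2 fell, and in CKO 10 rose and 3 fell. The risers included Cox5b at 1.10 and 0.77, Cox6b1 at 1.10 and 1.21, Cox7b at 1.37 and 1.00, Cox7a2 at 1.36 and 0.91 and Ndufa4 at 1.40 and 1.06. Cox4i1, a nuclear subunit that regulates the enzyme, changed by 0.47 (SE 0.22, limma adjusted p = 0.0699) in WT and passed the test in CKO at 0.52 (adjusted p = 0.0455). Cox7a2l, a Cox7a relative that takes part in joining complexes III and IV into supercomplexes, fell in both. Its WT values were 5.21, 5.60, 5.46 and 5.78 before and 4.24, 3.87, 3.94 and 3.92 after stimulation. Its CKO values were 5.38, 5.11, 5.28 and 5.39 before and 3.68, 3.68, 3.31 and 4.22 after. All stimulated arrays lay below all unstimulated arrays, and the changes were -1.52 (SE 0.19, limma adjusted p = 5.21e-07) and -1.57 (adjusted p = 4.46e-07). Cox7a1, the heart and muscle isoform, fell from between -1.55 and -1.16 to between -2.29 and -1.63 in WT, a change of -0.70 (SE 0.17, limma adjusted p = 0.00104), and by 0.64 in CKO. Cox6a2, another muscle isoform, was called lower in CKO at -2.16 (SE 0.84, limma adjusted p = 0.0325) and was at -1.43 in WT (adjusted p = 0.148). Its values ran from -5.50 to -0.32 over the 24 arrays and its groups overlapped.

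**Figure D2:**
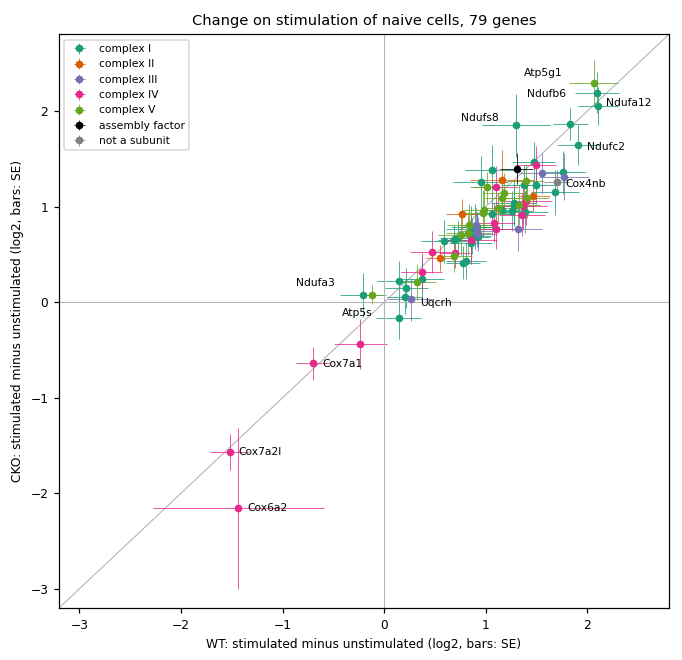
Change on stimulation (log2, bars are SE) in CKO (vertical axis) against WT (horizontal axis) for the 79 genes, coloured by complex. Most points lie in the upper right, with Ndufa12 at 2.10 and 2.05, and Cox7a2l lies at the lower left at -1.52 and -1.57.

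In complex V 14 of 16 genes rose in both genotypes. Atp5g1, Atp5g2 and Atp5g3 encode the same mature c subunit of the membrane ring, and they changed by unequal amounts. Atp5g1 stood at 4.14, 4.49, 4.19 and 3.80 before and at 5.90, 6.47, 6.41 and 6.08 after stimulation in WT. The CKO values were 3.54, 3.19, 2.92 and 3.44 before and 5.84, 5.51, 5.31 and 5.59 after. The change was 2.06 (SE 0.24, limma adjusted p = 2.16e-07) and 2.29 (adjusted p = 6.39e-08), with no overlap. Atp5g3 rose by 1.39 and 1.26 and Atp5g2 by 0.84 and 0.80. The alpha and beta subunits Atp5a1 and Atp5b rose by 1.12 and 1.16 in WT and by 0.98 and 1.09 in CKO. Of the central stalk, Atp5c1 (gamma) rose by 0.69 and 0.49, Atp5d (delta) by 1.01 and 1.20 and Atp5e (epsilon) by 0.97 and 0.93. Atp5s, the coupling factor B gene that RefSeq calls Dmac2l, was at -0.12 and 0.08. In all, 11 genes were called on stimulation in neither genotype. They were Ndufa2, Ndufa3, Ndufa6, Ndufa13, Ndufb10, Ndufb11, Uqcrh, Cox6a1, Cox6b2, Atp5h and Atp5s, and those outside the rule for names were singled out after their values were seen.

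Several genes were read by probes that disagreed. Of the 22 genes with more than 1 kept probe, 18 were called on stimulation in WT, and 5 of these had another probe of the opposite sign. The other probe of Cox5a gave -1.22 in WT and -1.49 in CKO against 1.49 and 1.44 for the probe used. The lowest probe gave -0.01 and -0.57 for Atp5f1, -0.65 and -0.54 for Uqcrq, -0.17 and -0.08 for Ndufb8, and in WT -0.23 for Sdha. The direction of these genes is therefore uncertain, here and in the comparisons that follow. So it is for Atp5b in Treg against naive cells, at -0.67 in WT and -0.47 in CKO with another probe at 0.25 and 0.26. For Cox4nb another probe gave 0.12 against -0.54 in CKO against WT stimulated cells. In WT Treg against naive cells it gave 0.07 against -0.42.

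Genes around the chain, listed outside the rule, mostly rose with it, where 31.7% of all genes rose in WT and 29.9% in CKO. Of the citric acid cycle genes 14 of 17 rose in WT, with fumarase (Fh1) at 2.10, Idh3a at 2.02 and Dlat at 1.71. Of the electron carriers and ubiquinone synthesis genes 14 of 15 rose, with Coq7 at 2.79, Coq4 at 2.77 and cytochrome c (Cycs) at 2.02. Of the exchange proteins of the mitochondrial membranes 6 of 8 rose, with the ADP/ATP carrier Slc25a5 at 1.60 and the pore protein Vdac1 at 1.58. Of the assembly factors 24 of 33 rose, with Tmem126a at 2.47, and 1 fell, Surf1, which serves complex IV, at -0.59. All 75 mitochondrial ribosomal protein genes rose in WT and 72 in CKO. In CKO cells 14 citric acid cycle, 13 carrier, 7 exchange and 23 assembly genes rose, and 2 assembly genes fell.

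Regulators of nuclear genes for mitochondria did not all move one way. Pprc1, a coactivator of the PGC-1 family, rose by 1.48 (SE 0.10) in WT and 2.01 in CKO. The difference between these responses was 0.53 (SE 0.14, limma adjusted p = 0.0415). Gabpa and Gabpb1, which together form the ETS factor also called NRF2, rose by 0.38 and 1.08 in WT and by 0.36 and 0.62 in CKO. Polrmt, the mitochondrial RNA polymerase, rose by 0.43 and 0.47. The estrogen-related receptor Esrra rose by 0.26 in WT (limma adjusted p = 0.0423) and was at 0.21 in CKO (adjusted p = 0.108). Ppargc1b, another PGC-1 family coactivator, fell by 0.51 and 1.05. Nrf1 fell in CKO by 1.00 and was at -0.30 in WT (limma adjusted p = 0.352), and Tfam, which packages and transcribes mitochondrial DNA, fell in CKO by 1.04 and was at -0.20 in WT (adjusted p = 0.691). The interaction did not pass for Nrf1 (limma adjusted p = 0.413) or Tfam (0.508).

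**Figure D3:**
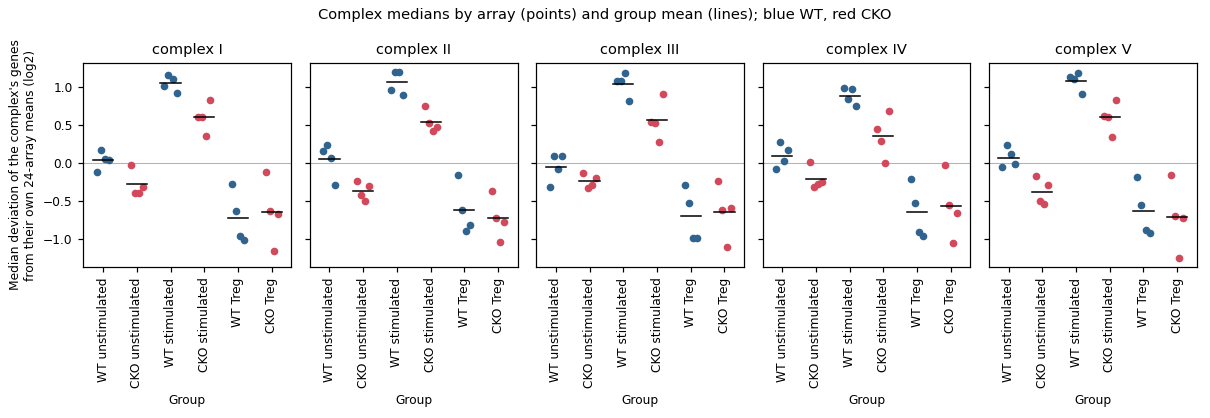
Median over each complex's genes of the deviation from the gene's own mean over 24 arrays (log2), per array (points, blue WT and red CKO) with group means (lines). In complexes I, II, III and V every stimulated array lies above every other array. In complex IV replicate 3 of the stimulated CKO cells, at -8e-04, lies below some unstimulated arrays. These are replicates 2, 3 and 4 of WT, at 0.27, 0.03 and 0.17, and replicate 1 of CKO, at 0.02. The Treg arrays spread widely.

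Markers of B cells and of myeloid and dendritic cells fell with stimulation. Of 9 tested B cell markers 9 fell in WT and 8 in CKO, and of 10 tested myeloid and dendritic cell markers 9 and 8. The summed level of 10 B cell markers was 5.63 to 22.0 in WT unstimulated and 0.409 to 1.95 in WT stimulated cells, where Blk, Cr2, Fcrla and Ebf1 were not well above background on any array. In CKO it was 14.3 to 49.0 and 1.33 to 5.37. The 8 myeloid and dendritic cell markers given under their listed names summed to 19.5 to 105 and 2.59 to 14.7 in WT, and to 21.4 to 268 and 4.89 to 123 in CKO. These sums leave out Lyz1 and Lyz2, which the array names Lzp-s and Lyzs. CD8 and NK cell markers summed to 12.0 to 20.7 before and 5.54 to 8.84 after stimulation in WT. In CKO they summed to 16.3 to 36.0 and 6.51 to 10.3. All tested erythroid and platelet markers were called lower in both genotypes. Several CD4 T cell markers were called lower as well. In WT they were Thy1 at -2.43, Cd4 at -0.82, Cd3g at -0.70, Lck at -0.68 and Lat at -0.40. In CKO Thy1, Cd4, Lck and Lat were, and Cd3d and Cd3e were called in neither genotype. The part of other cells in the stimulation results was not tested.

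In naive cells without Trim28 many oxidative phosphorylation genes were lower than in WT, and none was called higher. In unstimulated cells 14 of 79 were called lower, against 11.0% of all genes, and the median difference was -0.33 against 0.01 over all genes. For 26 genes every CKO array was lower than every WT array, against 12.5% of all genes. In stimulated cells 26 were called lower, against 12.4% of all genes, with a median of -0.50 against -0.05, and the arrays did not overlap for 29, against 15.2% of all genes. These comparisons share no arrays with each other, but each shares its arrays with the stimulation responses. Called lower in both states were 8 genes, namely Ndufab1, Ndufb6, Ndufv2, Ndufaf1, Uqcrfs1, Cox5a, Cox6b1 and Atp5f1. They made up 57.1% of the unstimulated and 30.8% of the stimulated list, and over all genes the shared share was 38.2% and 33.9%.

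These counts depended on single arrays and on the processing. Leaving out WT replicate 2 took the unstimulated count to 0, leaving out CKO replicate 3 took it to 2, WT replicate 3 to 4 and CKO replicate 2 to 5. The same count was 2 after normexp background correction and 6 with no filter on dim probes. The size of the difference moved less: the median of -0.33 ran from -0.40 to -0.28 without 1 array and was -0.36 after normexp and -0.32 with no filter. Leaving out 1 stimulated WT array gave 16 calls for replicate 1, 5 for replicate 2 and 9 for replicate 3, and leaving out 1 stimulated CKO array gave 15, 8, 6 and 47 for replicates 1 to 4. The stimulated count was 3 after quantile normalization, 3 with the authors' normalized values, 7 with arrays scaled on their brightest shared probes, 7 with no filter and 15 after normexp correction. The median of -0.50 ran from -0.60 to -0.43 without 1 array and was -0.50 with no filter and -0.65 after normexp, but it was -0.18 after quantile normalization. None of the 14 unstimulated calls held in all 10 other settings and all 8 fits without 1 replicate, and in stimulated cells only Sdhd and Uqcrfs1 of 24 named calls did.

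Within the slides that held a CKO and a WT array of the same state, the median difference over the 79 genes was not alike. In unstimulated cells it was 0.09 on slide 1, -0.61 on slide 3, -0.44 on slide 4 and -0.33 on slide 6, where the medians over all genes were 0.07, -0.05, 0.04 and -0.10. On slide 1, 43 of 79 genes were higher in CKO. In stimulated cells it was -0.50 on slide 1, -0.60 on slide 2, -0.90 on slide 4 and 0.0022 on slide 5, where all genes gave -0.07, -0.0055, -0.13 and 0.04. So 3 of 4 slides gave a lower median in CKO in each state. With the slide as a block 19 and 27 genes were called.

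**Figure D4:**
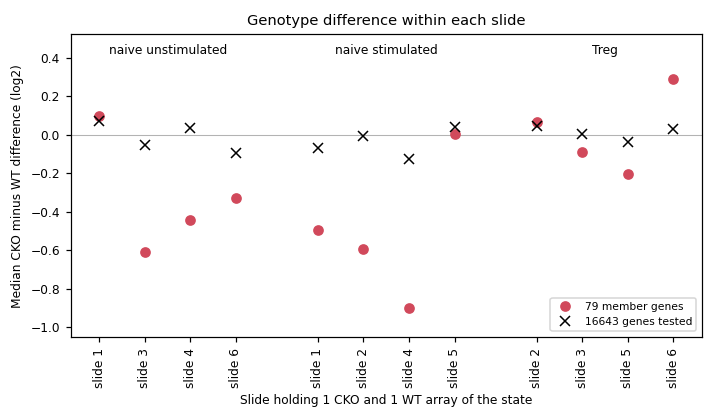
Median CKO minus WT difference (log2) within each slide that holds 1 array of each genotype, for the 79 genes (circles) and all 16643 genes (crosses), by cell state. The circles lie below the crosses on slides 3, 4 and 6 of the unstimulated and 1, 2 and 4 of the stimulated cells, and close to them on the remaining slide of each.

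Complex I gave 7 of the unstimulated calls and 8 of the stimulated ones among its 35 genes. Ndufab1 stood at 3.33, 3.66, 3.55 and 3.30 in WT and 2.94, 2.79, 2.63 and 2.91 in CKO unstimulated cells. In stimulated cells it was at 4.99, 5.48, 5.55 and 5.16 in WT and 4.88, 4.58, 4.52 and 4.73 in CKO. No CKO array reached a WT array in either state, and the differences were -0.64 (SE 0.17, limma adjusted p = 0.0139) and -0.61 (adjusted p = 0.0131). Ndufs8, an iron-sulfur subunit, had the lowest called difference in unstimulated cells, at -1.25 (SE 0.33, limma adjusted p = 0.0150). Its WT values were 1.54, 2.11, 1.82 and 0.45 and its CKO values 0.13, 0.30, -0.04 and 0.52. WT replicate 4 thus lay within the CKO range, and the same array overlapped CKO for Ndufa10, at 1.31 against 2.37 to 2.51 on the other WT arrays. Ndufa10 was called at -0.99 (SE 0.27, limma adjusted p = 0.0183). Other calls were Ndufa3 at -0.78, Ndufa11 at -0.76 and Ndufb6 at -0.72 in unstimulated cells, and Ndufv2 at -0.75, Ndufb5 at -0.69, Ndufc2 at -0.58 and Ndufs1 at -0.40 in stimulated cells. Ndufv1, which binds NADH, was at -0.10 and -0.13 and passed in neither.

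In complex II limma called 0 genes in unstimulated cells, where 3 of 4 had an unadjusted p under 0.05, and 1 in stimulated cells. That gene was Sdhd, at 5.35, 5.28, 5.11 and 4.82 in WT and 4.39, 4.45, 4.19 and 4.55 in CKO stimulated cells, a difference of -0.75 (SE 0.16, limma adjusted p = 0.00281). Sdhb was at -0.86 (SE 0.32, limma adjusted p = 0.0618) in unstimulated cells, where WT replicate 4, at 1.73, lay below the CKO arrays. In complex III Uqcrfs1 was lower in both states. It stood at 3.70, 3.99, 3.72 and 3.53 in WT and 3.23, 2.94, 3.08 and 3.29 in CKO unstimulated cells, and at 4.52, 4.82, 4.79 and 4.45 against 4.01, 3.81, 3.83 and 4.13 when stimulated. The groups did not overlap, and the differences were -0.60 (SE 0.17, limma adjusted p = 0.0208) and -0.70 (adjusted p = 0.00706). Uqcrq at -0.66, Uqcrb at -0.65 and Uqcrh at -0.63 were the other stimulated calls of complex III, and in unstimulated cells Uqcrfs1 was its 1 call.

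In complex IV 2 of 15 genes were called in unstimulated and 4 in stimulated cells. Cox6b1, a subunit facing the intermembrane space, was at -0.77 (SE 0.22, limma adjusted p = 0.0200) and -0.66 (adjusted p = 0.0330), and its groups did not overlap. Cox5a was at -0.63 and -0.69, but its other probe gave 0.95 and 0.69, so its direction is uncertain. Cox6c at -0.58 and Cox8a at -0.44 were called in stimulated cells only, and Cox8a turned to 0.01 after quantile normalization and with the authors' normalized values. Cox7a2l, the largest fall on stimulation in WT among the named genes, was at -0.22 and -0.27 and passed in neither. In complex V 3 of 16 genes were called in unstimulated cells: Atp5g1 at -0.88 (SE 0.24, limma adjusted p = 0.0174), Atp5f1 at -0.62 and Atp5d at -0.54. The call for Atp5g1 held under all 10 other settings and in 6 of 8 fits without 1 replicate. In stimulated cells 7 were called, among them Atp5l at -0.67, Atp5f1 at -0.66, Atp5j2 at -0.66, Atp5c1 at -0.65 and Atp5a1 at -0.46. Atp5g1 was at -0.65 there (limma adjusted p = 0.0548) and Atp5b at -0.34.

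Members of other mitochondrial gene groups were lower alongside, and the share of all genes called lower was 12.4% in stimulated and 11.0% in unstimulated cells. In stimulated CKO cells 52 of 75 mitochondrial ribosomal protein genes were called lower, 13 of 33 assembly factors, 7 of 17 citric acid cycle genes, 5 of 15 carriers and 4 of 8 exchange proteins, and none of these was called higher. In unstimulated cells the counts were 23, 8, 5, 3 and 3 in the same order. After quantile normalization, an alternative for these groups chosen after seeing the data, the stimulated counts were 8, 4, 4, 1 and 1 and the unstimulated ones 21, 8, 5, 4 and 1. After normexp correction they were 39, 7, 5, 5 and 1 in stimulated cells and 1, 1, 0, 0 and 0 in unstimulated cells. Fh1 at -0.66, Suclg2 at -0.77, Coq7 at -0.98, Cycs at -0.66 and Vdac2 at -0.62 were among the stimulated calls. Of the regulators, Gabpa was lower in both states, at -0.42 (SE 0.14, limma adjusted p = 0.0351) and -0.44 (adjusted p = 0.0240). Pprc1 was lower in unstimulated cells, at -0.60 (SE 0.10, adjusted p = 5.14e-04 by limma), and at -0.07 in stimulated cells. Nrf1 was higher in unstimulated CKO cells, at 0.84 (SE 0.27, limma adjusted p = 0.0383), with groups that overlapped. Myc, an activator of growth genes, was lower in both, at -0.55 and -0.60. In Treg, where limma called none of the 79 genes, Pprc1 and Myc were also lower in CKO, at -0.61 (SE 0.10, limma adjusted p = 4.72e-04) and -0.60 (adjusted p = 0.0214), and Gabpa was at -0.08 (adjusted p = 0.889).

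Some markers of cells other than CD4 T cells were called higher in CKO naive samples and none lower. Of 9 tested B cell markers limma called 1 in unstimulated cells (Cd79a, at 1.11) and 3 in stimulated cells (among them Cd79b, at 2.22, and Fcer2a, at 2.58), and of 7 CD8 and NK cell markers 2 in each state. Of 10 myeloid and dendritic cell markers it called 0 in either state, with 1 at an unadjusted p under 0.05 in each. Epcam, of the stroma and epithelium list, was called higher in both states, at 2.26 and 1.56, and in CKO Treg, at 1.84. B cell markers summed to 5.63 to 22.0 in WT and 14.3 to 49.0 in CKO unstimulated cells, and to 0.409 to 1.95 and 1.33 to 5.37 in stimulated cells. CD8 and NK cell markers summed to 12.0 to 20.7 and 16.3 to 36.0 in unstimulated cells. All these ranges overlapped. The Treg markers summed to 6.41 to 13.7 in WT and 2.71 to 3.18 in CKO unstimulated cells, and to 16.6 to 20.5 and 11.8 to 13.9 in stimulated cells, with no overlap. The single Treg markers did not all follow these sums. Gpr83 was called lower in CKO in both states, at -2.51 and -2.44. Nrp1 was called higher in both, at 2.04 and 1.98. Foxp3, the transcription factor that defines Treg, was also higher in CKO, by 0.95 (SE 0.20, limma adjusted p = 0.00366) and 2.45 (adjusted p = 5.45e-08). Ctla4 at 1.55 and Il2ra at 1.10 were called higher in unstimulated cells only. Ikzf2, which is outside the sums, was called higher in stimulated cells only, at 0.63. Of the CD4 T cell markers, Cd3e at -0.74 (limma adjusted p = 0.0389) and Cd3g at -0.71 (adjusted p = 0.0477) were called lower in unstimulated CKO cells. The other listed CD4 T cell markers were not called there, and none was called in stimulated cells. The part of other cells in the genotype differences was not tested.

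The difference between genotypes in the response to stimulation was called for 0 of 79 genes by limma, against 3.41% of all genes, with 1 at an unadjusted p under 0.05. The median interaction was -0.13 (0.03 after quantile normalization), with a range of -0.72 to 0.55. A larger number of calls in stimulated than in unstimulated cells therefore does not show that genotype differences grew with stimulation.

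**Figure D5:**
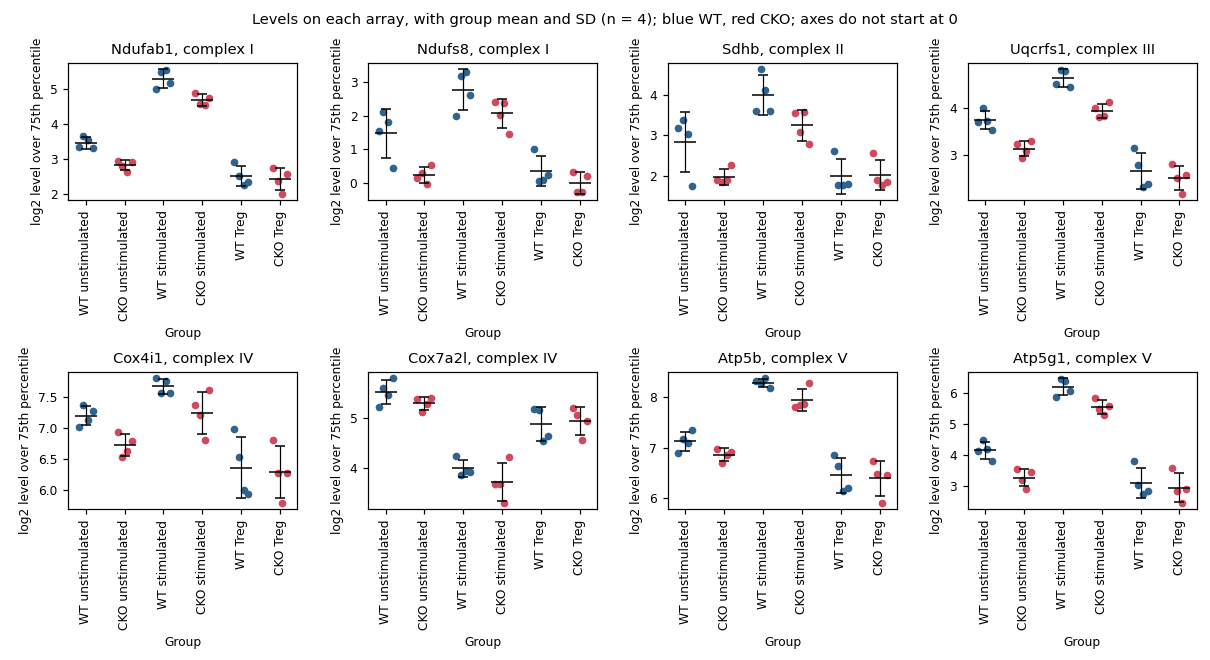
Levels (log2 over the array's 75th percentile) of 8 genes on each array by group, with group mean and SD (n = 4), blue WT and red CKO; axes do not start at 0. Ndufab1 and Uqcrfs1 separate the genotypes in naive cells, replicate 4 of the unstimulated WT cells is low for Ndufs8 and Sdhb, and Cox7a2l is low in stimulated cells.

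No gene was called between the genotypes in Treg. Limma called 0 of 79 genes, against 4.37% of all genes, with 1 at an unadjusted p under 0.05, and the median difference was 0.03. That gene was Atp5s, at -1.38, -1.18, -1.21 and -1.46 in WT and -1.59, -1.57, -1.58 and -1.70 in CKO. These did not overlap, and the difference was -0.30 (SE 0.10, limma adjusted p = 0.0937). It passed after quantile normalization (limma adjusted p = 0.0294), with the authors' normalized values (0.0296) and with the replicate number as a block (0.0419), and over the 10 other settings the adjusted p ran from 0.0294 to 1.00. Within slides the median over the 79 genes was 0.07, -0.09, -0.20 and 0.29. The Treg markers summed lower in CKO Treg, as given above, and of those in the sum only Gpr83 was called, at -1.41. Whether this bears on the 79 genes was not tested. The 95% interval of the Treg difference ran from -0.43 to 0.27 for Ndufab1, from -0.50 to 0.22 for Uqcrfs1 and from -1.04 to 0.34 for Ndufs8, so a call of none leaves room for differences within these bounds.

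Compared with unstimulated naive cells, Treg had lower levels of these genes in WT. Limma called 69 of 79 lower and 0 higher, against 29.6% of all genes that were lower, and the median was -0.75 against -0.09 over all genes. The calls were 32 of 35 in complex I, 3 of 4 in complex II, 6 of 7 in complex III, 11 of 15 in complex IV and 15 of 16 in complex V. Ndufs8 at -1.13, Uqcrfs1 at -1.09, Cox6a1 at -1.08, Ndufa3 at -1.07 and Atp5g1 at -1.06 had the largest differences. For Uqcrfs1 the WT naive values of 3.70, 3.99, 3.72 and 3.53 compared with 3.15, 2.78, 2.30 and 2.37 in Treg, with no overlap (SE 0.17, limma adjusted p = 6.23e-05). Cox6a1, the broadly expressed isoform, stood at 8.29, 8.61, 8.42 and 8.57 in naive cells and 7.95, 7.50, 7.00 and 7.10 in Treg (SE 0.20, limma adjusted p = 2.73e-04). Cox7a1 and Atp5s did not pass, at 0.04 and 0.16. The count was 38 after quantile normalization, 38 with the authors' normalized values and, scaled on the brightest shared probes, 33, of which 2 were higher.

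In CKO 14 of 79 genes (17.7%) were called lower in Treg than in naive cells, near the 16.4% of all genes. The median was -0.35 against -0.06 over all genes. The called genes were 7 in complex I, 1 in complex II, 3 in complex III, 1 in complex IV and 2 in complex V. Ndufb10 at -0.75, Cox6a1 at -0.69, Ndufc1 at -0.65 and Uqcrfs1 at -0.62 led the list. The count was 9 after quantile normalization, 9 with the authors' normalized values, 6 with only the compared arrays and 62 after normexp correction. Scaled on the brightest shared probes it was 4, of which 1 was higher. It ran from 1 without CKO Treg replicate 3 to 39 without CKO Treg replicate 1, the dimmest array, with medians of -0.19 and -0.52. Without the 4 dimmest Treg arrays it was 0 while the median was -0.36. That setting leaves 1 CKO Treg array, which is assumed to vary like the other groups. The difference between genotypes in the Treg to naive difference was called by limma for 0 of 79 genes, against 0.397% of all genes, with 12 at an unadjusted p under 0.05. Its median was 0.39 against 0.04 over all genes. Of the 79 values 75 (94.9%) were positive, against 53.4% over all genes, but the genes moved together across arrays, as given below, so these signs are not independent. Markers of B cells and of CD8 and NK cells were lower in Treg than in naive cells too. Of 9 tested B cell markers 7 were called lower in WT and 9 in CKO, and of 7 CD8 and NK cell markers 5 and 6. The B cell markers summed to 3.46 to 7.30 in WT Treg and 4.10 to 10.2 in CKO Treg, against 5.63 to 22.0 and 14.3 to 49.0 in unstimulated naive cells. Several CD4 T cell markers were lower in Treg as well. In WT Cd3g at -1.40, Thy1 at -1.02, Cd3d at -0.89, Lck at -0.70, Cd3e at -0.68 and Lat at -0.53 were called. Cd4, at -0.35, was not. In CKO only Lat at -0.64 and Lck at -0.49 were called among these markers. The part of other cells in the Treg differences was not tested.

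The Treg arrays spread more than the naive ones. The median deviation of the 79 genes from their own means was -0.25, -0.58, -0.92 and -0.98 on the WT Treg arrays and -0.10, -0.64, -1.11 and -0.69 on the CKO Treg arrays. On the unstimulated arrays it ran from -0.12 to 0.21 in WT and from -0.41 to -0.08 in CKO. The Treg arrays were also the dimmer ones, with the signals given above. Without the 4 dimmest, 1 of WT and 3 of CKO, the median Treg to naive difference was -0.66 in WT with 63 genes called and -0.36 in CKO, against -0.75 and -0.35 with all arrays. Across the 24 arrays the deviations of the genes from their group means moved together, with a median pairwise r of 0.79 over all pairs and 0.81, 0.58, 0.90, 0.76 and 0.83 within complexes I to V. Atp5s was the least tied to the rest, at 0.12. These points share arrays and their scaling, so the correlations are a description.

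Scaling set the size of all these differences. Arrays scaled on their brightest shared probes moved the median of all genes by 0.16 in CKO against WT unstimulated, 0.26 in stimulated cells, -0.38 and -0.28 on stimulation in WT and CKO, and 0.44 and 0.28 in Treg against naive cells of WT and CKO. Relative to the median of all genes, the median of the 79 genes stays where it was under that scaling by construction, at -0.34, -0.45, 1.01, 0.99, -0.65 and -0.29 in the same order. After quantile normalization the relative medians were -0.15, -0.16, 0.61, 0.71, -0.24 and -0.10, smaller but of the same sign. The share of higher genes among all called genes moved from 41.6% to 70.9%, 48.7% to 81.2%, 51.2% to 35.0%, 49.7% to 36.0%, 39.1% to 79.0% and 41.8% to 74.4% with the brightest probes.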

How the data were processed

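Total RNA of 24 samples was labelled with Cy3 and hybridised to Agilent arrays, 4 per slide on 6 slides. Per the file headers the deposited processed signal is an intensity that was background subtracted, detrended and given surrogates for low values, and Agilent Feature Extraction 9.5 is named in the submitters' processing notes. The authors' normalized values, also a deposited intensity, had the same distribution on every array and were used as an alternative.

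Here log2 of the signal minus the array's 75th percentile was taken. Outlier spots (49 to 90 per array of 43379 read) and control spots were dropped, and replicate spots were averaged per probe. Probes had to be well above background on 3 or more arrays of some group, a filter that 25198 of 41174 passed, and the brightest kept probe stood for a gene. limma 3.58.1 in R 4.3.3 fitted 6 group means to 24 arrays and tested 9 contrasts, 2-sided, with Benjamini-Hochberg adjusted p under 0.05. The fit was tested on simulated data. Replicates correlated at 0.961 to 0.993 across genes. No spot of these genes was saturated. Input was read with data.table (version 1.17.8) and jsonlite (2.0.0). Figures were drawn with matplotlib 3.10.9 and numpy 2.4.6 in Python 3.11.15.

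The members, gene lists and comparisons were chosen with earlier results of these data known. Named genes were a fixed list plus, per contrast, complex and direction, up to 4 called genes of largest change, and every gene called against its complex's majority or in an interaction. This gave 64 members, of which 1 is not reported here by name. Companion lists gave up to 3 genes each. Alternatives changed the normalization (quantile, brightest 2000 shared probes, the authors' values), the background (normexp, offset 50), the filter, the probe rule, the arrays fitted, a slide or replicate block, and left out each array. Slides are read from the file headers. Same-numbered CKO and WT arrays of a cell state shared a slide, but their deviations did not correlate in every pair, so the numbers were not taken to pair the samples.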

Additional observations from a re-analysis of the deposited data

Results flagged for a closer look

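Of 414 groups of 4 arrays examined, 23 held 1 array whose gap to the nearest other array passed Dixon's 95% critical value as a share of the group's range. Chance alone gives about 1 in 20 such groups. The values that stood apart follow, as log2 levels. In WT naive unstimulated cells Atp5k at 4.506, Cox6c at 5.372, Ndufb8 at 4.411 and Uqcrb at 4.037 were those of replicate 1. Atp5d at 5.381 was that of replicate 2, and Ndufa10 at 1.312 and Sdha at 0.6783 were those of replicate 4. In WT naive stimulated cells Ndufb8 at 6.662 stood apart on replicate 3 and Atp5l at 5.340 and Ndufc1 at 5.600 on replicate 4. In CKO naive unstimulated cells the values were Atp5k at 4.744 and Ndufa4 at 4.566 on replicate 1 and Sdhb at 2.261 on replicate 4. In CKO naive stimulated cells they were Ndufa11 at 3.433 on replicate 1, Atp5a1 at 6.491 on replicate 3, and Atp5b at 8.278, Uqcrq at 8.047 and Cox4nb at 2.085 on replicate 4. In Treg, replicate 1 held Sdhb at 2.614 in WT and at 2.567 in CKO and Ndufb8 at 4.525 in WT. CKO Treg replicate 3 held Uqcrc1 at 4.420, and CKO Treg replicate 4 held Cox6a2 at -4.025.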

How the results depend on the processing

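The counts of genes called on stimulation kept within 1.5 times of 66 in WT and 67 in CKO under every alternative run, and the interactions stayed at 0. For CKO against WT, in unstimulated cells 14 calls became 2 after normexp correction and 6 with no filter, with 0 to 19 when 1 array was left out. In stimulated cells 26 became 3 after quantile normalization, 3 with the authors' values, 7 on the brightest shared probes, 15 after normexp and 7 with no filter, with 5 to 47 when 1 array was left out. In Treg 0 became 1 after quantile normalization, 1 with the authors' values and 1 with the replicate block. For Treg against naive WT cells 69 became 38, 38 and 33 with quantile normalization, the authors' values and the brightest probes. For CKO 14 became 9, 9 and 4 with these, 62 after normexp and 6 with only the compared arrays, with 1 to 39 when 1 array was left out. Without the 4 dimmest Treg arrays, an alternative chosen after seeing the data, it was 0. The causes were not tested.

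Same-numbered CKO and WT arrays lay on the same slide but did not correlate above 0.1 in every pair (from -0.21 to 0.17 in unstimulated, -0.31 to 0.41 in stimulated and 0.08 to 0.46 in Treg), nor did every array correlate best with its own number. With the replicate block 20, 38, 68, 68, 70 and 17 genes were called in unstimulated, stimulated, stimulation in WT and CKO, and Treg against naive in WT and CKO.

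Called directions turned for Cox5a with the mean of kept probes (0.16 for CKO against WT unstimulated and -0.0235 on stimulation in CKO). They turned for Cox8a in CKO against WT stimulated cells after quantile normalization (0.0114) and with the authors' values (0.0131), and for Cox4nb (0.0162) and Ndufs1 (0.0157) in Treg against naive WT cells on the brightest probes. Of 11639 comparisons of a gene's value with an alternative, 547 changed sign where neither value was called.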
